A study of Mus musculus with 2 samples.

Results

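Radial glia marker-positive nuclei of whole fetal mouse brain are described here: 1413 nuclei out of 20574 deposited barcodes. A nucleus was taken when at least 5 of its unique molecular identifiers (UMIs, each standing for 1 captured RNA molecule) came from 8 radial glia genes, namely Slc1a3, Fabp7, Hes5, Sox2, Prdm16, Veph1, Gli3 and Vim. It also had to hold at least 500 detected genes, at most 5% mitochondrial UMIs, at most 1 UMI of 7 division genes (Top2a, Mki67, Kif11, Kif23, Knl1, Cenpf and Aspm), none of Eomes, none of Cnpy1, En1 or En2, and at most 1 of the collagen genes Col1a1, Col1a2 and Col3a1. The levels of all these genes therefore chose the nuclei and are given as a description. The study compared wildtype mice with mice carrying a knockout of Cav1, the gene for the caveolar membrane protein caveolin 1, in frozen whole brain of fetal age, with 1 single-nucleus library per genotype. The study's title places caveolin 1 in metabolic programming of the fetal brain. The sources used here give no fetal day, strain, deleted exon or number of pooled brains. No difference between the libraries has a replicate check, so that genotype, dissection and handling cannot be told apart, no test was run, and every interval below covers counting error only.

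Radial glia are the stem cells of the fetal brain. Their bodies line the ventricles, their long processes guide migrating neurons, and they give rise to neurons directly or through Eomes-expressing intermediate progenitors. Notch signalling holds them in the progenitor state, hedgehog and Wnt signals pattern them by region, and late in development many of them turn into astrocytes.

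In the library labelled wildtype 661 of 6686 nuclei that passed the gene and mitochondrial limits met the rule, a share of 9.89% (exact binomial 95% interval 9.18 to 10.6%). In the library labelled knockout 752 of 6680 did, a share of 11.3% (10.5 to 12.0%). The chosen nuclei held 1897145 and 2421001 UMIs, with medians of 2359 and 2594.5 UMIs per nucleus, against 2133.5 and 2366 over all nuclei that passed the limits. The libraries shared 0 barcodes among the chosen nuclei, 10 among the nuclei that passed the limits and 43 among all deposited barcodes. Among the chosen nuclei Cav1 itself gave 10 UMIs under the wildtype label and 18 under the knockout label, 5.27 and 7.43 CPM (UMIs scaled to the usual common total per library), a log2 ratio of 0.50 (−0.70 to 1.77). Total Cav1 here does not follow the labels, and counts near the 3′ end do not show which exons a transcript holds, so the libraries are called wildtype-labelled and knockout-labelled throughout. All log2 ratios below are of CPM in the knockout-labelled over the wildtype-labelled library, and values of the libraries are given in the order wildtype-labelled, knockout-labelled. In sums over nuclei, fewer expressing nuclei and less RNA per nucleus cannot be told apart.

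The rule gathered a mixed set, and the name radial glia holds for only some of it. A separate list of 35 radial glia genes outside the rule (among them Tnc, Ptprz1, Qk, Msi2 and Adgrv1) reached summed levels of 6019 and 5575 CPM in the chosen nuclei, against 3119 and 2997 CPM in all other nuclei that passed the limits. The 18 genes of a neuron list (such as Dcx, Tubb3, Stmn2 and Snap25) still stood at 3722 and 4185 CPM, against 4918 and 4928 CPM in the other nuclei. Most of the levels hung on how far a nucleus exceeded the minimum of 5 marker UMIs. Just below it, at 4 marker UMIs, the radial glia list stood at 3225 and 2872 CPM, and just inside it, at 5 marker UMIs, at 3950 and 3428 CPM. Nuclei with 8 or more marker UMIs reached 8124 and 8296 CPM. The neuron list went the other way, from 4697 and 5090 CPM at 5 marker UMIs to 2847 and 3202 CPM at 8 or more. At least 3 of the 8 markers were detected in 76.1% and 69.1% of the chosen nuclei, and Fabp7, a fatty acid-binding protein gene, reached the minimum alone in 73 (11.0%) and 130 (17.3%).

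**Figure D1:**
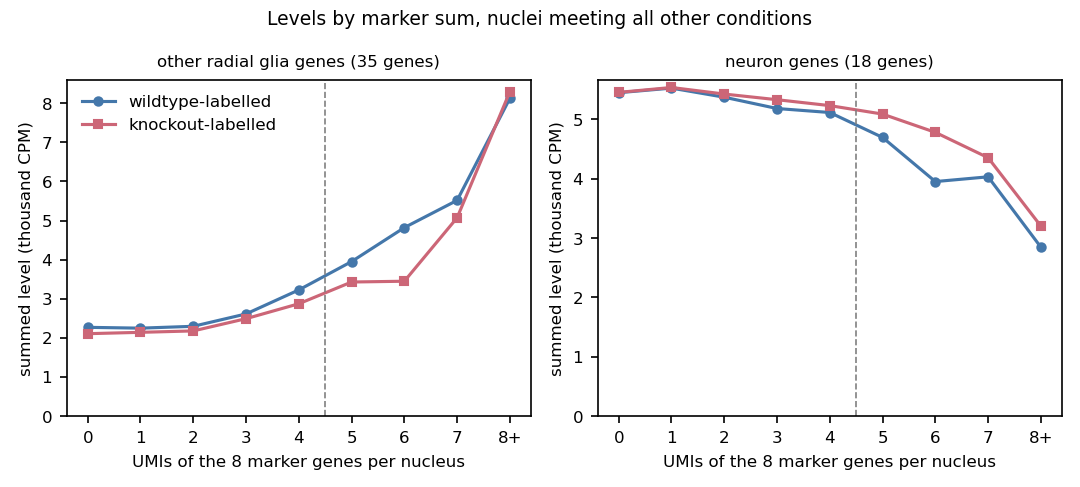
Summed level (CPM divided by 1000) of the 35 other radial glia genes (left) and the 18 neuron genes (right) by the number of UMIs of the 8 marker genes per nucleus, for nuclei that met all other conditions; the dashed line marks the minimum of 5. Nuclei at 5 marker UMIs sit close to those at 4 (3950 against 3225 CPM of radial glia genes in the wildtype-labelled library), and the radial glia level is highest at 8 or more.

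Clustering of the chosen nuclei of both libraries gave 15 clusters, which were named from marker lists (the naming thresholds were set after the clusters had been seen). Of these, 5 clusters were radial glia-like, with 280 wildtype-labelled nuclei (42.4%) and 245 knockout-labelled nuclei (32.6%). A further 5 were neuron-like, with 245 (37.1%) and 322 nuclei (42.8%). A choroid plexus-like cluster held 21 and 18 nuclei, an endothelial-like cluster 8 and 13, and an oligodendrocyte precursor-like cluster 2 and 12. The naming thresholds left clusters 2 and 6 without a name, with 105 (15.9%) and 142 (18.9%) nuclei together. Cluster 2 (57 and 88 nuclei) had a median of only 772 UMIs and haemoglobin genes among its leading genes. Cluster 6 (48 and 54 nuclei) had 10383 CPM of the other radial glia genes over both libraries, within the 8629 to 13144 CPM of the radial glia-like clusters, but the intermediate progenitor gene Btg2 among its 10 leading genes. Since the clusters were made from the same genes, their sizes are a description of the set and not a comparison of cell numbers between the genotypes. The highest 8% of doublet scores per library covered 78 chosen nuclei (11.8%) and 75 (9.97%), of which 61 and 47 were neuron-like and 5 and 15 radial glia-like; Scrublet's own threshold marked 2 and 1 nuclei per library and had not worked.

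**Figure D2:**
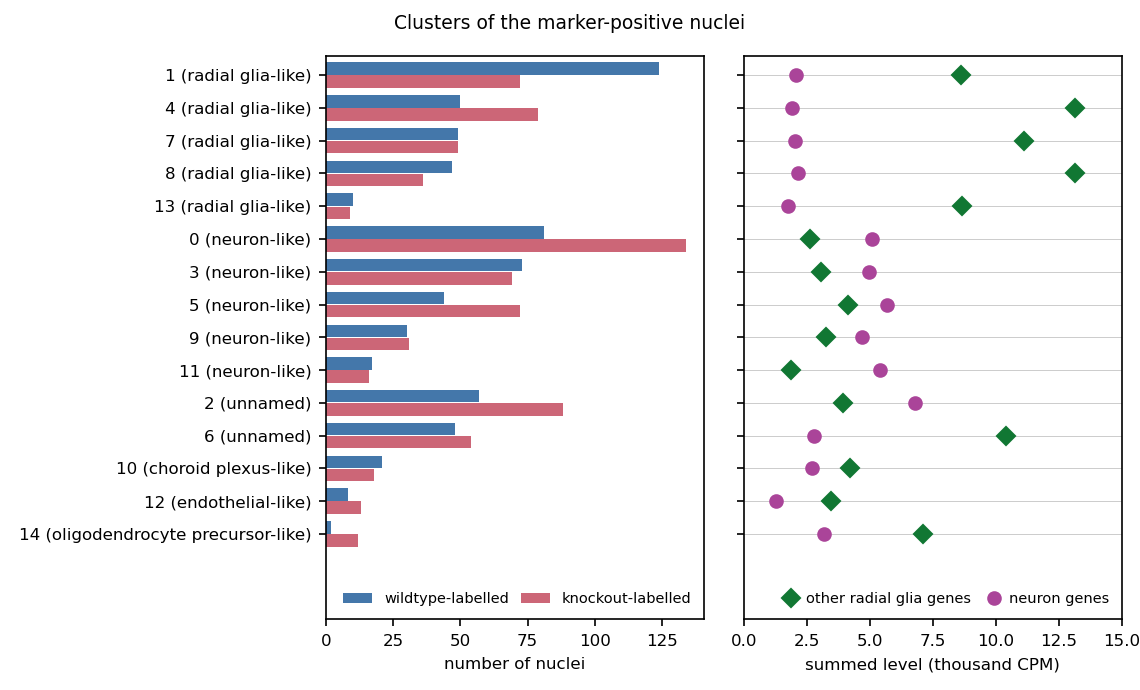
Left, number of nuclei per cluster in each library; right, summed level (CPM divided by 1000) of the other radial glia genes (diamonds) and the neuron genes (circles), both libraries pooled. Radial glia-like clusters and unnamed cluster 6 lie at the high end of the radial glia genes, whereas the neuron-like clusters and cluster 2 have more of the neuron genes.

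In the radial glia-like clusters the other radial glia genes stood at 10373 and 11939 CPM and the neuron genes at 2009 and 2024 CPM. The neuron-like nuclei had 3077 and 2821 CPM of the former, no more than the rest of the brain, and 4950 and 5253 CPM of the latter. Nuclei with the same markers but 2 or more division UMIs (348 and 305 nuclei) had 7161 and 6556 CPM of the other radial glia genes, and nuclei with an Eomes UMI (494 and 392) had 3774 and 3496 CPM. At least 3 distinct markers were found in 97.1% and 95.5% of the radial glia-like nuclei, compared with 58.8% and 53.7% of the neuron-like nuclei. Median depths were 2120.5 and 2301 UMIs in the former and 3372 and 3605 in the latter, and deeper nuclei reach a fixed number of marker UMIs more easily.

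The conditions on division genes did not remove nuclei with genes of DNA replication. Over 24 S phase genes, such as the replication helicase subunits Mcm2 to Mcm7, the radial glia-like nuclei had 1241 and 1045 CPM, against 646 and 571 CPM in the nuclei outside the rule and 1458 and 1235 CPM in the dividing marker-positive nuclei. These genes were highest in clusters 1 (1897 and 1725 CPM), 6 (2166 and 1613 CPM) and 8 (1459 and 1815 CPM), and low in cluster 4 (465 and 511 CPM). Over 21 G2 and M phase genes that the rule did not use, the radial glia-like nuclei had 723 and 683 CPM and the dividing nuclei 2474 and 2342 CPM. All other nuclei that passed the limits, which include the dividing ones, had 866 and 761 CPM, and the neuron-like nuclei 471 and 444 CPM. The radial glia-like nuclei were thus lower in G2 and M phase genes than the dividing nuclei. The limit on division UMIs favours that contrast. They were not free of S phase genes.

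Of the 8 marker genes, those used to choose the nuclei, Slc1a3 (a glutamate transporter) stood at 363 and 337 CPM in all chosen nuclei and at 671 and 867 CPM in the radial glia-like ones. Hes5, a Notch effector, stood at 147 and 150 CPM and at 276 and 295 CPM. Vim, an intermediate filament gene, stood at 208 and 230 CPM and at 228 and 263 CPM. Over all chosen nuclei the libraries thus lay close for these 3 genes. Gli3, the transcriptional repressor of the hedgehog pathway, was lower under the knockout label, with 481 and 306 CPM over all chosen nuclei (log2 ratio −0.65, −0.79 to −0.51) and 875 and 655 CPM in the radial glia-like ones (−0.42, −0.61 to −0.23). Veph1, a gene of the ventricular zone, had 161 and 96.2 CPM (−0.74, −1.0 to −0.49), and 350 and 288 CPM in radial glia-like nuclei (−0.28, −0.58 to 0.01). In all other nuclei Gli3 was at −0.21 (−0.30 to −0.11) and Veph1 at −0.42 (−0.62 to −0.22). In the Eomes nuclei they were at −0.12 (−0.36 to 0.13) and −1.20 (−1.78 to −0.65). Sox2, a transcription factor of neural progenitors, was level over all chosen nuclei with 55.9 and 59.1 CPM, and had 54.2 and 90.5 CPM in the radial glia-like ones on 34 and 55 UMIs (0.74, 0.10 to 1.40). For Prdm16, a chromatin regulator of the ventricular zone, the levels were 434 and 370 CPM, and for Fabp7 844 and 902 CPM. Fabp7 differed least between radial glia-like and neuron-like nuclei, as the plot of the marker genes shows, and was still at 438 and 443 CPM in nuclei outside the rule.

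**Figure D3:**
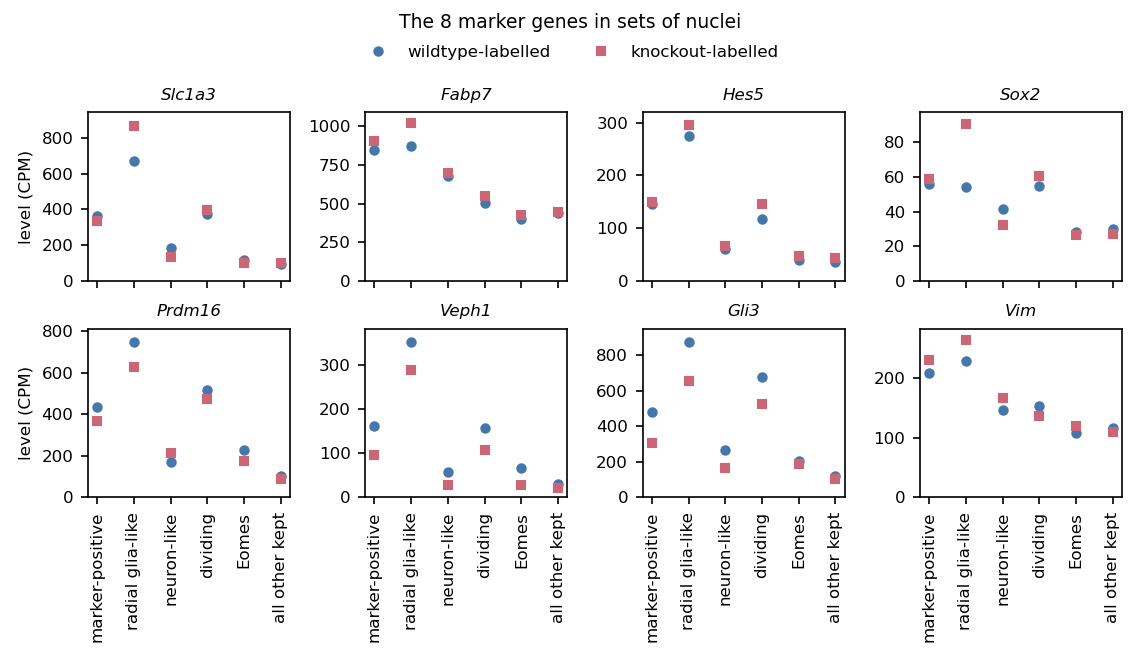
Level in CPM of each of the 8 marker genes in all marker-positive nuclei, their radial glia-like and neuron-like clusters, the dividing marker-positive nuclei, nuclei with an Eomes UMI and all other nuclei that passed the limits; circles are the wildtype-labelled and squares the knockout-labelled library. Gli3 and Veph1 are lower in the knockout-labelled library in every set shown, while Slc1a3 and Sox2 are higher in that library in the radial glia-like clusters.

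Genes outside the rule were also higher in the chosen nuclei than in the rest. At least 2-fold higher levels than in all other nuclei, in both libraries, were found for 139 of 7962 genes with at least 100 UMIs (1.75%), among them 9 of the 30 other radial glia genes at that depth. Since the nuclei were chosen and compared on the same counts, this is a description. Tnc, which encodes the matrix glycoprotein tenascin C, had 359 and 360 CPM against 67.2 and 70.2 CPM in the other nuclei, and 899 and 1220 CPM in the radial glia-like clusters. The noncoding RNA gene 8030451A03Rik had 502 and 515 CPM against 92.1 and 89.2 CPM, and 1243 and 1758 CPM in the radial glia-like clusters. Hs3st3a1, a heparan sulfate sulfotransferase gene, had 25.3 and 22.3 CPM against 4.64 and 4.30 CPM. Aldh1l1, a folate enzyme gene widely used as an astrocyte marker, had 38.5 and 43.4 CPM against 8.62 and 9.39 CPM. Hepacam, a glial adhesion gene, had 20.0 and 26.4 CPM against 3.92 and 6.59 CPM. Each of these 5 genes was higher again in the radial glia-like clusters. Other genes at the top of this order came from a different source: Htr2c, a serotonin receptor gene, had 388 and 293 CPM over all chosen nuclei but only 9.56 and 4.94 CPM in the radial glia-like clusters. Gmnc, a regulator of multiciliated cells, had 68.0 and 21.9 CPM, and 123 of its 129 wildtype-labelled and 49 of its 53 knockout-labelled UMIs lay in the choroid plexus-like cluster 10. Clic6, a chloride channel family gene of the choroid plexus list, likewise had 7.97 and 3.29 CPM in the radial glia-like clusters. The cilia genes Cfap100 (32.2 and 29.3 CPM) and Lrriq1 (89.6 and 83 CPM) remained at 76.5 and 87.2 CPM and at 58.9 and 72.4 CPM in the radial glia-like clusters.

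The 5 radial glia-like clusters differed in regional genes, but not each from every other. Clusters 1, 8 and 13 shared higher levels of the dorsal forebrain factors, with 586, 285 and 731 CPM over both libraries. Clusters 4 and 7 had 40.5 and 162 CPM. Cluster 1 (124 and 72 nuclei) held most of Tfap2c, a transcription factor of dorsal forebrain progenitors, with 65 and 40 UMIs. Cluster 4 (50 and 79 nuclei) held Pax3, a factor of the dorsal neural tube and midbrain, with 72 and 104 UMIs. The first of its leading genes was Hoxb3os, and the hindbrain gene Hoxb3 had 0 and 6 UMIs there. Cluster 7 (49 and 49 nuclei) held genes of the cortical hem and dorsal midline, the signalling border of the developing cortex: Rspo2 with 72 and 28 UMIs, Rspo3 with 79 and 26, Lmx1a with 31 and 8 and Wnt8b with 15 and 6. It was mixed in regional genes. Over both libraries it had 1399 CPM of the hem list, 2663 CPM of a floor plate list and 1320 CPM of diencephalon and midbrain factors. Slit2, of the floor plate list, had 272 and 207 UMIs there. Cluster 8 (47 and 36 nuclei) had the highest summed level of the 8 rule markers among these 5 clusters, with 5459 and 6123 CPM, and 17 and 10 Tfap2c UMIs. Cluster 13 (10 and 9 nuclei) had the most of the 4 nuclear factor I genes, with 8118 and 8212 CPM. The genes that define the clusters are listed as a description.

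Between the libraries, most genes of the chosen nuclei were close. The 7962 genes that reached 100 UMIs over both libraries had a median log2 ratio of −0.03, and 5% and 95% of them lay below −0.44 and 0.45. Past 1.5-fold, 199 genes (2.5%) were higher with the knockout label and 143 genes (1.8%) were lower. Within the radial glia-like clusters, 118 of 2884 genes at that depth were higher (4.09%) and 88 lower (3.05%), 7.14% in either direction against 4.3% over all chosen nuclei. In the neuron-like clusters 121 of 5071 were higher (2.39%) and 103 lower (2.03%), 4.42% in either direction. Of the genes deep enough for both sums, 26 were past 1.5-fold higher over all chosen nuclei and 20 of these (76.9%) also in the radial glia-like clusters, where they made up 16.9% of the 118. In the lower direction 22 of 38 (57.9%) were shared, 25.0% of the 88. These sums share nuclei. Among the genes at both ends of the ratio, Flt1, Ndst4 and Gmnc had few UMIs in the radial glia-like clusters.

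**Figure D4:**
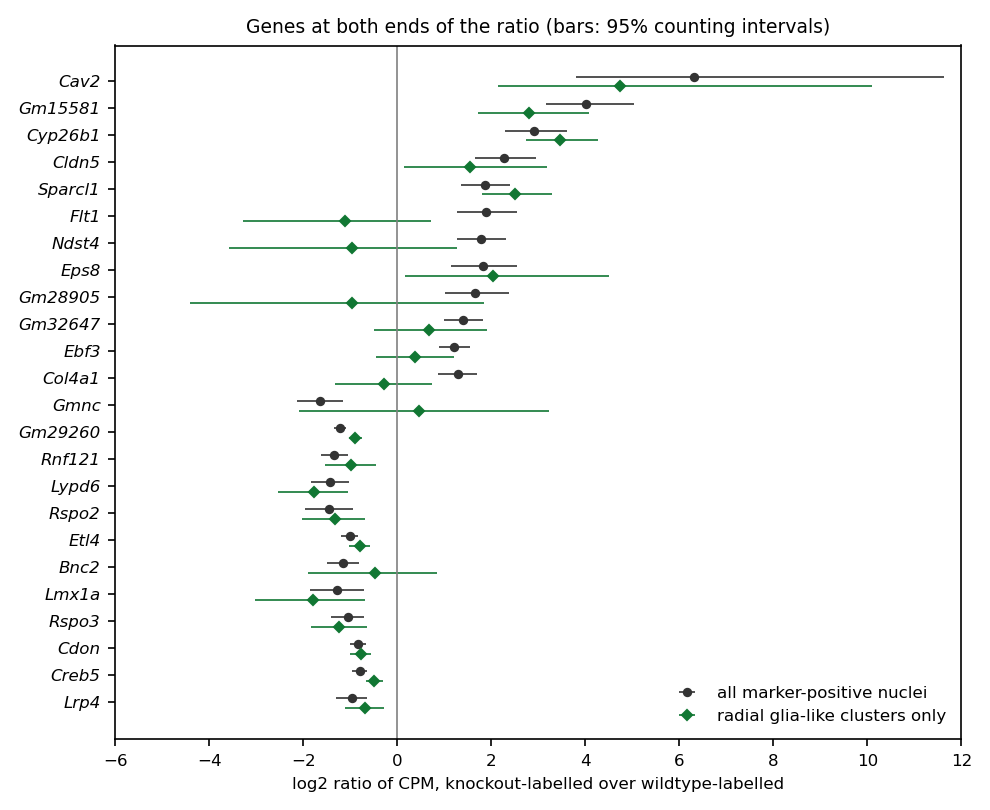
Log2 ratio of CPM, knockout-labelled over wildtype-labelled, with 95% counting intervals, for the 12 genes with the highest and the 12 with the lowest interval bound nearest 0 in all marker-positive nuclei (circles), and for the same genes in the radial glia-like clusters (diamonds). Cyp26b1, Sparcl1 and Gm29260 keep their side in the radial glia-like clusters; Flt1, Ndst4, Gm28905 and Col4a1 lie above 0 in all nuclei and below 0 in the radial glia-like ones, and Gmnc does the reverse, with wide intervals.

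The widest ratios belonged to the neighbourhood of the targeted gene. Cav2, whose product joins caveolin 1 in caveolae, gave 1 and 101 UMIs, 0.527 and 41.7 CPM (log2 ratio 6.31, 3.80 to 11.6), and 1 and 26 UMIs in the radial glia-like clusters (4.75, 2.14 to 10.1). Gm15581, a long noncoding RNA gene on chromosome 6 at 17206822 to 17385603 (minus strand, GRCm39), gave 11 and 228 UMIs (4.02, 3.16 to 5.04). It spans Cav2 (17281026 to 17289877) and Cav1 (17306140 to 17341451) on the opposite strand, and since use of the strand in counting is not stated, reads of these genes cannot be told apart. The same held outside the rule: in all other nuclei Cav2 stood at 1.18 and 38 CPM and Gm15581 at 3.33 and 92.0 CPM. Rnf121, a ubiquitin ligase gene, was lower both inside the rule (153 and 60.7 CPM, −1.34, −1.63 to −1.05) and outside it (171 and 53.5 CPM, −1.67).

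Genes of the astrocyte list were higher in the knockout-labelled radial glia-like nuclei. Summed over its 20 genes, the level was 1058 and 2128 CPM (log2 ratio 1.01, 0.87 to 1.15), while the neuron-like nuclei had 535 and 555 CPM. The list was also higher in the dividing marker-positive nuclei (621 and 848 CPM, 0.45, 0.32 to 0.58), in the Eomes nuclei (459 and 617 CPM, 0.43, 0.28 to 0.57) and in all other nuclei (542 and 639 CPM, 0.24, 0.20 to 0.28). Of the 8 genes with at least 100 UMIs in these clusters, 7 were at least 1.5-fold higher and 0 lower, against 4.09% and 3.05% of all genes there; the median ratio of the 8 was 1.10, that of all genes −0.04. Genes can pass the depth minimum through the library in which they are high, and over the 12 list genes at that depth in all chosen nuclei the radial glia-like median was 0.71. Apoe, the lipid carrier apolipoprotein E, stood at 131 and 443 CPM (1.76, 1.40 to 2.14). Sparcl1, a secreted matrix protein of astrocytes and vessels, stood at 30.3 and 173 CPM (2.51, 1.80 to 3.30). The GABA transporter gene Slc6a11 had 65.3 and 202 CPM (1.63, 1.11 to 2.18), and Slc1a2, the glutamate transporter of mature astrocytes, 54.2 and 146 CPM (1.44, 0.85 to 2.05). Slc4a4, a bicarbonate transporter gene, had 169 and 286 CPM (0.76, 0.41 to 1.12). Late astrocyte genes were near absent, with Gfap at 2 and 0 UMIs, Aqp4 at 2 and 3 and Agt at 0 and 1.

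The ratio was uneven over the radial glia-like clusters. In cluster 1 the astrocyte list stood at 597 and 604 CPM (0.01, −0.39 to 0.42) and in cluster 8 at 1429 and 1761 CPM (0.30, −0.05 to 0.66). Cluster 4 had 1890 and 3445 CPM (0.87, 0.66 to 1.07) and cluster 7 818 and 1965 CPM (1.26, 0.93 to 1.60). The clusters with the most list UMIs in the knockout-labelled library were thus clusters 4 and 7. Cluster 4 held Pax3 in both libraries and Hox UMIs in the knockout-labelled one only, and cluster 7 held midline genes. Cluster 4 made up a larger part of the knockout-labelled radial glia-like nuclei (79 of 245) than of the wildtype-labelled ones (50 of 280). How far this shift in makeup enters the sums over all 5 clusters was not tested. Clusters 4 and 7 themselves differed between the libraries in regional genes (Cyp26b1 in cluster 4, hem and floor plate genes in cluster 7), so that their values do not separate makeup from level. Over the whole set of chosen nuclei, 3 of 12 list genes (Slc1a2, Sparcl1 and Slc6a11) were past 1.5-fold higher and 0 lower, against 2.5% and 1.8% of all genes. The list median was 0.24, against −0.03 over all genes. Leaving out cluster 1, chosen after seeing the data, the ratios of Sparcl1 and Slc1a2 were 2.47 and 1.24. Apoe is also a gene of macrophages, and the 8 microglia genes stood at 127 and 130 CPM in the radial glia-like clusters. Whether macrophage RNA enters the Apoe ratio was not tested.

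**Figure D5:**
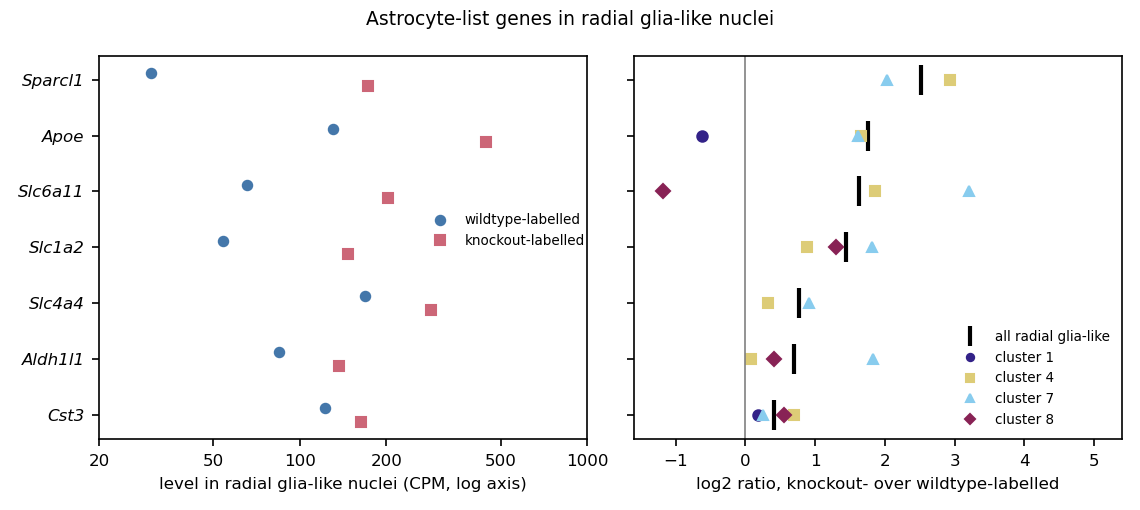
Left, level in CPM (log axis) of 7 astrocyte-list genes with at least 100 UMIs over both libraries in the radial glia-like clusters; right, log2 ratio for all radial glia-like nuclei (bars) and for clusters 1, 4, 7 and 8 where the gene had at least 20 UMIs. Each of the 7 genes shown is higher in the knockout-labelled library over all radial glia-like nuclei; Apoe in cluster 1 and Slc6a11 in cluster 8 lie below 0.

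Other genes with wide ratios in the radial glia-like clusters went in both directions. By the rule for naming genes, applied to the radial glia-like clusters after their values were known, the metabotropic glutamate receptor gene Grm7 had 92.4 and 426 CPM (2.21, 1.79 to 2.64), with 279 and 688 CPM in cluster 4 and 99.4 and 670 CPM in cluster 7. Cntn5, which encodes a contactin, was lower, with 155 and 32.9 CPM (−2.23, −3.00 to −1.53), as was Zfp804b, a zinc finger gene, with 169 and 41.1 CPM (−2.04, −2.73 to −1.40). Over all chosen nuclei these differences shrank: Grm7 stood at 0.36, Cntn5 at 0.07 and Zfp804b at −0.20. In the dividing marker-positive nuclei Zfp804b went the other way, with 47.0 and 164 CPM (1.80, 1.40 to 2.22). Cntn5 was also higher there (0.52, 0.31 to 0.73), as was Grm7 (0.84, 0.55 to 1.12). In all other nuclei Zfp804b was at 0.51 and Cntn5 at 0.17. The Eomes nuclei had Zfp804b at 0.58 and Cntn5 at −0.19. The neuron list in the radial glia-like clusters was level between the libraries (2009 and 2024 CPM).

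Among other radial glia genes, 0 of 30 at least 100 UMIs deep were past 1.5-fold higher over all chosen nuclei and 1 was lower, against 2.5% and 1.8% of all genes. The lower gene was Nr2e1, an orphan nuclear receptor of neural stem cells, with 46.4 and 21.1 CPM (−1.14, −1.67 to −0.63). In the radial glia-like clusters 5 of 20 were higher and 0 lower, against 4.09% and 3.05% of all genes there. They were Ednrb, an endothelin receptor gene, with 112 and 216 CPM (0.95, 0.52 to 1.39), Mfge8, a secreted adhesion protein gene, with 98.8 and 183 CPM (0.89, 0.43 to 1.36), Lrig1, Pdpn and Ttyh1. Tnc was short of that fold, with 899 and 1220 CPM (0.44, 0.28 to 0.60). The abundant genes Msi2 and Qk, both for RNA-binding proteins, were at 0.20 (0.08 to 0.31) and 0.30 (0.17 to 0.44). Pax6, a transcription factor of cortical radial glia, had 317 and 283 CPM (−0.16, −0.47 to 0.14), and Nes, the filament gene nestin, 71.7 and 65.8 CPM (−0.12, −0.77 to 0.52).

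Most junction, polarity and adhesion genes were short of 1.5-fold. Of 24 at that depth 1 was higher over all chosen nuclei and 0 lower, against 2.5% and 1.8% of all genes, with a list median of −0.08. The gene was Bcan, for the proteoglycan brevican, with 23.7 and 40.5 CPM (0.77, 0.25 to 1.31). In the radial glia-like clusters 3 of 17 were higher and 0 lower (median 0.09), against 4.09% and 3.05% of all genes there: Bcan with 49.4 and 114 CPM (1.20, 0.57 to 1.86), the related proteoglycan gene Vcan with 175 and 285 CPM (0.70, 0.35 to 1.06) and the adhesion gene Vcam1 with 60.5 and 112 CPM (0.89, 0.29 to 1.5). Of 3 genes of the floor plate, a ventral midline region, 2 were higher there and 0 lower, against the same shares: Spon1, for the matrix protein spondin 1, with 94.0 and 224 CPM (1.25, 0.80 to 1.72), and Ntn1, the axon guidance cue netrin 1, with 110 and 242 CPM (1.14, 0.72 to 1.57). Summed over its 9 genes, the floor plate list was nearly level in the radial glia-like clusters, with 953 and 1032 CPM (0.12, −0.05 to 0.28). Slit2, also of that list, had 2080 and 1541 CPM in cluster 7. The ratios of Spon1 and Ntn1 differed by cluster. In cluster 7 Spon1 had 10 and 49 UMIs (2.25, 1.25 to 3.4) and Ntn1 31 and 87 (1.45, 0.84 to 2.09), whereas in cluster 4 the intervals of both spanned 0, with 40 and 84 UMIs (0.34, −0.22 to 0.93) and 30 and 43 UMIs (−0.21, −0.91 to 0.52).

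Regional genes gave some of the widest ratios. Cyp26b1, whose product breaks down retinoic acid, gave 23 and 222 UMIs, 12.1 and 91.7 CPM (2.92, 2.30 to 3.61), and was found in 2.27% and 7.98% of nuclei. Most Cyp26b1 UMIs lay in cluster 4, with 16 and 177 UMIs, 115 and 766 CPM (2.74, 2.0 to 3.58), and nuclei outside the rule had 5.29 and 33.6 CPM. The 14 genes of the hindbrain list (Hox genes, which give the hindbrain its segments, and Egr2) gave 0 UMIs together in the wildtype-labelled chosen nuclei, which allows up to 1.58 CPM taking 3 UMIs as the limit, and 74 in the knockout-labelled ones (30.6 CPM, 24.0 to 38.4). Over all nuclei that passed the limits the counts were 11 and 518. A UMI of this list was found in 0 of 661 nuclei (up to 0.557% by the exact bound) and in 6.12% of 752 nuclei (4.51 to 8.08%), or 2.92% at an equal depth of 1000 UMIs, with 57 and 68 shallower nuclei left out. Hindbrain signal was thus nearly confined to the knockout-labelled library, among the chosen nuclei and over all nuclei that passed the limits, and the region sampled cannot be told apart from genotype.

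Dorsal midline genes were lower under the knockout label among the chosen nuclei, but not in the dividing marker-positive nuclei, and not under every choice of nuclei. Of 5 hem and midline genes at that depth 3 were past 1.5-fold lower and 0 higher, against 1.8% and 2.5% of all genes. Rspo2, a secreted amplifier of Wnt signalling, had 55.3 and 20.2 CPM (−1.45, −1.97 to −0.95), its relative Rspo3 99.6 and 47.9 CPM (−1.06, −1.40 to −0.71), and Lmx1a, a roof plate transcription factor, 41.1 and 16.9 CPM (−1.28, −1.86 to −0.72). Their levels lay mainly in cluster 7, where the list stood at 2042 and 774 CPM (−1.40, −1.74 to −1.07) with 49 nuclei in each library. The makeup of cluster 7 was not the same in both libraries: the floor plate genes Spon1 (76.5 and 365 CPM) and Ntn1 (237 and 648 CPM) were higher there. Slit2 of the same list was lower (2080 and 1541 CPM). In the dividing marker-positive nuclei the hem list went the other way, with 194 and 343 CPM (0.82, 0.60 to 1.05), Rspo2 at 1.65 (0.96 to 2.39) and Rspo3 at 0.78 (0.37 to 1.20). With only chosen nuclei of fewer than 3 neuron UMIs, the median of the list was 0.66 and Rspo2 was at 4.70 on 23 UMIs. In all other nuclei outside the rule Rspo2 was at 19.9 and 19.0 CPM, Rspo3 at 77.7 and 72.3 CPM and Lmx1a at 12.3 and 16.6 CPM.

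Several genes that led cluster 1 were lower as well. Gm29260, a long noncoding RNA gene on chromosome 1 (41782154 to 41978758, GRCm39), had 772 and 333 CPM (−1.21, −1.34 to −1.09), with 1840 and 991 CPM in the radial glia-like clusters (−0.89, −1.04 to −0.75). Gm29260 lay mostly in clusters 1 and 8, where its levels were 3571 and 2883 CPM (−0.31, −0.48 to −0.14) and 3082 and 2357 CPM (−0.39, −0.66 to −0.11). Etl4, a gene leading the same cluster 1, had 349 and 173 CPM (−1.01, −1.19 to −0.84), and in that cluster 1352 and 1065 CPM (−0.34, −0.64 to −0.06). Creb5, a transcription factor gene, had 416 and 239 CPM (−0.80, −0.96 to −0.65), and in cluster 1 1557 and 1583 CPM (0.02, −0.22 to 0.27). Inside cluster 1, a smaller part of the knockout-labelled set, the ratios of Gm29260, Etl4 and Creb5 were −0.34 or nearer to 0. In the neuron-like nuclei, which hold none of cluster 1, they were −1.04 (−1.31 to −0.76), −1.06 (−1.42 to −0.70) and −0.97 (−1.33 to −0.61). How far makeup enters these ratios was not tested. Of 3 dorsal forebrain factors with at least 100 UMIs, Tfap2c (59.0 and 31.4 CPM) and Neurog2 (47.4 and 28.5 CPM) were past 1.5-fold lower and 0 higher, against 1.8% and 2.5% of all genes. Inside cluster 1 Tfap2c was level, with 283 and 284 CPM. With nuclei chosen by at least 2 marker UMIs per 1000, Neurog2 and the median of the list were both at 0.011.

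Of the signalling pathways of radial glia, the Notch and FGF lists were level in sum over all chosen nuclei. The Wnt and hedgehog lists were lower in sum there under the knockout label, with ratios nearer to 0 in the radial glia-like clusters. Of 15 Notch genes at that depth over all chosen nuclei, 0 were past 1.5-fold in either direction, against 4.3% of all genes. Their list had a summed level of 1774 and 1776 CPM (0.00, −0.06 to 0.07). The receptor gene Notch1 had 245 and 217 CPM in the radial glia-like clusters (−0.18, −0.52 to 0.17), and Notch2 185 and 160 CPM (−0.21, −0.62 to 0.19). In the 7 FGF genes 0 were past that fold, against the same 4.3%, with a sum of 1601 and 1564 CPM (−0.03, −0.10 to 0.04). Fgfr2, the receptor gene, had 942 and 925 CPM (−0.03, −0.12 to 0.06). Of 11 BMP and Id genes 1 was higher and 0 lower, against 2.5% and 1.8% of all genes. It was Id1, with 17.4 and 27.7 CPM on 33 and 67 UMIs. The Wnt list summed to 1720 and 1364 CPM (−0.33, −0.40 to −0.26). In the radial glia-like clusters the sum was 2226 and 1922 CPM (−0.21, −0.32 to −0.10). The dividing marker-positive nuclei had 1604 and 1672 CPM (0.06, −0.02 to 0.15). Among its 14 genes at that depth over all chosen nuclei 0 were higher and 3 lower, against 2.5% and 1.8% of all genes: Rspo2, Rspo3 and the nuclear effector gene Lef1 (141 and 88.8 CPM, −0.67, −0.94 to −0.41). In nuclei with fewer than 3 neuron UMIs Lef1 was at 0.13, on 27 UMIs, and Rspo2 at 4.70.

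The hedgehog list summed to 961 and 770 CPM over all chosen nuclei (−0.32, −0.41 to −0.23). The sum was 1772 and 1623 CPM in the radial glia-like clusters (−0.13, −0.25 to −0.002). In the dividing marker-positive nuclei the list had 1294 and 1213 CPM (−0.09, −0.19 to 0.003). Of its 8 genes at that depth over all chosen nuclei, 2 were past 1.5-fold lower and 0 higher, against 1.8% and 2.5% of all genes. They were the co-receptor gene Cdon with 362 and 204 CPM (−0.83, −1.0 to −0.66) and the activator gene Gli2 with 126 and 79.7 CPM (−0.66, −0.94 to −0.38). Ptch1, the receptor and a standard target of the pathway, pointed the other way, with 118 and 164 CPM (0.47, 0.23 to 0.71) and 201 and 354 CPM in the radial glia-like clusters (0.82, 0.49 to 1.15). The Ptch1 ratio was uneven, with 161 and 514 CPM in cluster 7 (1.68, 0.95 to 2.46), 573 and 602 CPM in cluster 4 (0.07, −0.34 to 0.49) and 10 and 0 UMIs in cluster 1. Inside cluster 1, Cdon had 1461 and 1101 CPM (−0.41, −0.69 to −0.13). All 4 nuclear factor I genes, regulators of the turn to glial fate, had ratios below 0, with 1 past 1.5-fold lower, against 1.8% of all genes. Their sum was 3811 and 3066 CPM (−0.31, −0.36 to −0.27), but 5208 and 4908 CPM (−0.09, −0.16 to −0.01) in the radial glia-like clusters. Outside the rule it was 3161 and 2663 CPM. Of 12 S phase genes 1 was lower, Atad2, and 0 higher, against 1.8% and 2.5% of all genes. Against the same shares, 1 of 11 cyclin D and cell cycle inhibitor genes was lower and 0 higher. The lower one was Ccnd2, a G1 cyclin gene of radial glia, with 167 and 109 CPM (−0.62, −0.86 to −0.38).

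The study's title points to metabolic genes. Their counts over all chosen nuclei stand beside shares of 2.5% higher and 1.8% lower past 1.5-fold among all genes. Of 17 glycolysis genes 1 was higher and 1 lower: Slc2a1, the glucose transporter GLUT1, with 22.1 and 35.1 CPM (0.67, 0.12 to 1.23), and Hk2, a hexokinase gene, with 31.1 and 16.9 CPM (−0.88, −1.49 to −0.28). In the radial glia-like clusters Slc2a1 was at −0.24 (−1.23 to 0.72). Of 18 fatty acid genes and 18 cholesterol genes 0 were past that fold in either direction over all chosen nuclei, and of 22 insulin, AMPK and mTOR genes 1 was lower, Prkaa1. In the radial glia-like clusters the desaturase gene Scd2 had 288 and 571 CPM (0.99, 0.72 to 1.25), the only 1 of 6 fatty acid genes past 1.5-fold. Of 11 cholesterol genes 3 were higher there and 0 lower, against 4.09% and 3.05% of all genes: Hmgcs1 with 124 and 191 CPM (0.62, 0.19 to 1.05), Fdft1 with 70.1 and 115 CPM (0.72, 0.15 to 1.29) and Msmo1 with 78.1 and 128 CPM (0.72, 0.18 to 1.26), all enzymes of sterol synthesis. The summed cholesterol list stood at 1932 and 1782 CPM in cluster 1 (−0.12, −0.35 to 0.11) and at 1797 and 2419 CPM in cluster 4 (0.43, 0.21 to 0.65).

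Some of the highest ratios over all chosen nuclei were of vessel genes. The 9 endothelial genes summed to 68.5 and 212 CPM. Both genes at that depth, Cldn5 and Flt1, were past 1.5-fold higher, against 2.5% of all genes, and Ly6c1 was at 0 in both libraries. In the radial glia-like clusters the sum was 70.1 and 95.5 CPM. It was also higher in the dividing marker-positive nuclei (1.30, 1.05 to 1.55) and in all other nuclei (0.51, 0.43 to 0.60), but lower in the Eomes nuclei (−0.61, −1.09 to −0.13). The junction gene Cldn5 had 13.2 and 63.6 CPM over all chosen nuclei (2.27, 1.66 to 2.94) and 9.56 and 28.0 CPM in the radial glia-like clusters (1.55, 0.14 to 3.18), and the VEGF receptor gene Flt1 14.2 and 52.5 CPM and 14.3 and 6.58 CPM. The basement membrane collagen gene Col4a1 had 34.8 and 84.7 CPM over all chosen nuclei and 31.9 and 26.3 CPM in the radial glia-like clusters. The endothelial-like cluster 12, with 8 and 13 nuclei, held 1 and 113 of the Cldn5 UMIs, 14 and 118 of the Flt1 UMIs and 11 and 136 of the Col4a1 UMIs. Whether the nuclei of cluster 12 were alike in both libraries was not tested. Similarly, Ndst4, a heparan sulfate enzyme gene with 20.6 and 70.2 CPM, gave only 6 and 3 UMIs in the radial glia-like clusters, and Ebf3, a neuronal transcription factor gene with 58.0 and 134 CPM, had 73 and 222 of its UMIs in neuron-like cluster 0. The radial glia-like clusters gave intervals of Flt1 (−1.12, −3.27 to 0.72), Col4a1 (−0.27, −1.32 to 0.75) and Ndst4 (−0.95, −3.58 to 1.27) that spanned 0, whereas that of Cldn5, on 6 and 17 UMIs, lay above it.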

How the data were processed

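The values deposited by the authors are counts of UMIs, not normalized, for each of 55416 features in each barcode. Per the file headers they were made with Cell Ranger 6.1.1, while the submitters' processing notes name Cell Ranger 3.0.1, STAR and GRCm39; whether intronic reads or the strand were used is not given in the sources used here. The number of value columns left unused was 0. Positions are from GENCODE M39, which matched 54749 features (98.8%) by identifier.

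Nuclei were chosen by the rule in the report, and their UMIs were summed per library and scaled to CPM. CPM intervals are exact Poisson, shares exact binomial (Clopper-Pearson) and log2 ratios exact conditional binomial, all at 95%. The interval code was tested on simulated data. With 1 library per genotype no test was possible. A gene counted as higher or lower past 1.5-fold, among genes with at least 100 UMIs over both libraries. Genes can reach that depth through the library in which they are high, so the counts of each list are a description. The members and lists were chosen with earlier results of these data known.

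Clusters came from scanpy 1.11.5 (10000 UMIs per nucleus, 2000 variable genes, 20 components, 15 neighbours, Leiden with leidenalg 0.10.2 at resolution 1), with no correction between libraries. A name needed at least 3 markers of its list at 2-fold above the other clusters. Where another class had more genes among the 10 leading ones, that class was taken if it met the same minimum with a share of at least 0.5 of its list, and the cluster otherwise stayed unnamed, as did one whose median UMI count times 3 was under the median of all members. Doublets were scored with Scrublet and kept in the main results.

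Named genes were those of the rule with Cav1, Cav2 and Gm15581, the 12 with the highest and the 12 with the lowest interval bound nearest 0, the 15 with the highest fold over all other nuclei, and from each of 39 lists the abundant genes and those past 1.5-fold. Of these the text gives a selection. Alternatives varied the limits on nuclei, the marker minimum, depth, scaling, doublets, gene minimum and fold. Some named genes, and the comparisons and alternatives that need them, are not reported here.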

Additional observations from a re-analysis of the deposited data

How the results depend on the processing

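No paired analysis was possible because each genotype has 1 library. Shares of nuclei that met the rule moved to 10.9% and 12.6% with at least 1000 genes per nucleus, 3.72% and 4.12% with 8 or more marker UMIs, 15.3% and 17.9% with at least 2 marker UMIs per 1000, and 7.33% and 8.61% with no division UMI. Genes past 1.5-fold numbered 72 higher and 68 lower after thinning to 1000 UMIs, 117 higher with 8 or more marker UMIs, 234 lower by the mean of shares, 25 and 35 with fewer than 3 neuron UMIs, 438 and 377 at 50 UMIs per gene, 47 and 30 at 300, and 34 and 14 at 2-fold. Chosen after seeing the data, the radial glia-like clusters gave 118 and 88, 78 and 66 without cluster 1, 112 and 93 without cluster 8, and 127 and 86 with cluster 6; the neuron-like clusters gave 121 higher. At resolution 2 the neuron-like share was 31.8% and 37.4%. Ratios changed sign with 8 or more marker UMIs for Flt1 (−0.65), Col4a1 (−0.45) and Slc2a1 (−0.35). Per 1000 UMIs they did for Neurog2 (0.011) and the dorsal forebrain median (0.011), Slc2a1 (−0.27) and Pdgfra (−0.028). Thinning turned Ror1 (0.094). With fewer than 3 neuron UMIs the sign changed for Gmnc (0.38), Rspo2 (4.70), Bnc2 (0.42), Clic6 (0.62), Lef1 (0.13), Ror1 (0.24) and the hem median (0.66). In the radial glia-like clusters it changed for Col4a1 (−0.27), Slc2a1 (−0.24) and Ror1 (0.56). Without cluster 1 these were −0.33, −0.86 and 0.24, and without cluster 8 −0.27, −0.37 and 0.73. With cluster 6, Col4a1 was −0.13, Ror1 0.52 and Pdgfra −2.08. In the neuron-like clusters Cldn5 (−0.22), Slc2a1 (−0.20) and Ror1 (0.54) changed sign. The cause was not tested for any of these. Of the other gene and list values under the alternatives set at the start, 842 stayed within their counting interval and 181 moved without a change of sign. Depth limits single genes within clusters.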
